A study of Homo sapiens
Mus musculus and Mus musculus and Homo sapiens with 16 samples.

Results

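Collagen genes encode the structural proteins of the extracellular matrix, and here they were read in MS-5, a mouse bone marrow stromal cell line that is used as a feeder for blood and lymphoma cells. The mouse table held 49671 genes, and the 44 of them that were protein coding and carried a collagen chain name (Col, a type number, a and a chain number) were taken. They fell into 11 fibrillar chains, 6 chains of type IV, 6 of type VI, 9 fibril-associated chains, 3 short-chain network chains, 2 multiplexins, 4 transmembrane collagens and 3 others. The rule takes names and uses no measured value.

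The stromal cells were compared in 2 conditions. In the first, MS-5 cells were grown alone (MS-5 alone, n = 4 libraries). In the second, 500000 MS-5 cells were plated in 10 cm dishes a day ahead, 5000000 REC-1 cells, a human mantle cell lymphoma line, were put on top, and the adherent layer was lysed after 24 h (Adh, n = 4). No other treatment is named for either line, and the layers were not sorted, so an Adh library mixes mouse stromal with human lymphoma RNA and the mouse counts stand for the stroma. Monocultured REC-1 cells (Sep) and REC-1 cells in suspension above the stroma (Susp), 4 libraries each, served only for their human counts. The study describes the 4 replicates as independent experiments, with 1 stromal and 1 lymphoma line.

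A collagen molecule is a trimer of chains that wind around each other along stretches of repeated Gly-X-Y triplets, in which glycine, the smallest amino acid, fills the centre of the helix. Fibrillar chains (types I, III, V and XI) pack into the cross-banded fibrils that carry load, type IV chains form the sheet of basement membranes, type VI chains form thin beaded filaments around cells, and short chains of types VIII and X form hexagonal nets. Chains are hydroxylated and folded in the endoplasmic reticulum, trimmed outside the cell and cross-linked by lysyl oxidases. In bone marrow, stromal cells produce much of this matrix.

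The repeat can be read in the coding sequence. Each stretch printed here, from the GENCODE M21 annotation of GRCm38 in the sense of the gene, runs over the first 20 Gly-X-Y triplets of the longest uninterrupted repeat of its chain, with the glycine codons in capitals. The chains shown are those of type I collagen, the main fibril collagen, and 3 of the 4 chains whose libraries did not overlap between conditions (types V, VI and VIII).
Col1a1: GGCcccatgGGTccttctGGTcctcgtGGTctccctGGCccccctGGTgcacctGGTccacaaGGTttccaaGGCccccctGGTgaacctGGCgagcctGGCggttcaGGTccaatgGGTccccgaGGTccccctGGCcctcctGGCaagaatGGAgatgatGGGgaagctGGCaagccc
Col1a2: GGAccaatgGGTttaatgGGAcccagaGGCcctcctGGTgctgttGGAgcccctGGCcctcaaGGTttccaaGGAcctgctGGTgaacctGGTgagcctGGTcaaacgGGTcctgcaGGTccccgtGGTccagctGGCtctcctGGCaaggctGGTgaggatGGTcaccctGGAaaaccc
Col5a2: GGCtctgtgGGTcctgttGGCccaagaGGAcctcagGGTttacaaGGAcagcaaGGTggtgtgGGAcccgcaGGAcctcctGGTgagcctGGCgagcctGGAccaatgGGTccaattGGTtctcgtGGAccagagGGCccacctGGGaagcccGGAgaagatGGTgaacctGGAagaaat
Col6a1: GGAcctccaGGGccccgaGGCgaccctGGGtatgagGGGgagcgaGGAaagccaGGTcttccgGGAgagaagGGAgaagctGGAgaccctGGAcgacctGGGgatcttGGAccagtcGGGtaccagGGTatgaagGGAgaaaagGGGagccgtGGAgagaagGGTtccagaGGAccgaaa
Col8a1: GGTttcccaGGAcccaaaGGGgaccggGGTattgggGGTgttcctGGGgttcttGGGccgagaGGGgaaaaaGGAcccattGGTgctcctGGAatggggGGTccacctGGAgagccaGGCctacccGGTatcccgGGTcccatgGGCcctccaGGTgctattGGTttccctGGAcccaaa
The Col1a1 stretch encodes residues 168 to 227 (gene at chr11:94936224-94953042, plus strand) and the Col1a2 stretch residues 97 to 156 (chr6:4504814-4541544, plus strand). The Col5a2 stretch encodes residues 211 to 270 (chr1:45374321-45503282, minus strand), the Col6a1 stretch residues 256 to 315 (chr10:76708792-76726168, minus strand) and the Col8a1 stretch residues 355 to 414 (chr16:57624258-57754737, minus strand).

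The 11 fibrillar chains had the longest repeats. Fibrillar chains that passed the filter on low counts held 1 long run of 337 to 344 triplets, whereas the longest run was 40 triplets in Col4a1, whose repeat is broken into 22 runs, 66 in Col4a2, 87 in Col6a1 and in Col6a2, and 45 in Col6a3. Triplets covered from 8.12% of the residues, in Col12a1, to 85.6%, with a median of 61.2% over the 44 chains. The repetition left the chains distinguishable at the length of a read. Of the 20 members that were tested, 8 shared any 25-base word of their coding transcript with another mouse collagen, and the number of such words was at most 19, in Col8a1. With the human chain of the same name they shared between 0.251% (Col18a1) and 9.84% (Col1a1) of their words.

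In the deposited tables the Adh libraries held 29495404 to 34615602 mouse counts and MS-5 alone 10097555 to 17397651, so values in coculture rest on deeper libraries. Of 9 B cell genes, Cd79b, Ptprc, Cd52, Pax5 and Cd37 had no mouse count in any library, and the summed list stood at 0.139 to 0.396 counts scaled to a mouse total of 1000000 (CPM) in MS-5 alone and at 0.119 to 0.433 CPM in Adh, nearly all of it Cd74. Of 9 stromal genes 8 had counts, with summed levels of 6036 to 6352 CPM alone and 5929 to 6609 CPM in Adh. Most of that sum was Vim (means of 5036 and 4941 CPM), and the surface markers Thy1 and Nt5e had 0 and 2 counts in all. The 5 endothelial genes had 16 counts in all, 2 of the 5 with any, and the 5 chondrocyte genes 28, all on Comp. The summed list of 5 epithelial genes stood at 9.11 to 12.7 CPM alone and 11.3 to 14.4 CPM in Adh, nearly all of it Krt19, with Epcam and Cdh1 at 0. The 5 macrophage genes summed to 5.02 to 6.32 CPM alone and 5.40 to 7.97 CPM in Adh, with Adgre1 and Itgam at 0. Osteoblast genes stood at 114 to 125 CPM alone and 103 to 126 CPM in Adh, most of it Runx2, and adipocyte genes at 1688 to 2139 CPM alone and 1604 to 2160 CPM in Adh, most of it Lpl. Of the osteoblast genes Sp7 had 12 counts in all, Ibsp 8 and Bglap 0, while Alpl averaged 10.2 CPM alone. Of the adipocyte genes Adipoq had 6 counts in all and Plin1 102, while Pparg and Fabp4 averaged 118 and 201 CPM alone.

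MS-5 cells carried a broad set of collagen mRNAs. Collagens made up 0.897% ± 0.037 (SD, n = 4) of the mouse counts in MS-5 alone and 0.931% ± 0.051 (SD, n = 4) in Adh, with overlapping ranges of 0.848% to 0.934% and 0.890% to 0.996%. Counting error was small beside this spread, as the 95% Wilson interval of the share in a library reached at most 0.0058 percentage points to each side. The 3 members with the most counts took 42.1% of all collagen counts and the 10 with the most took 92.7%.

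Levels of different genes were compared per kilobase of exon, as CPM per kilobase (RPKM), and as means over the 8 libraries. Col1a1, the main chain of type I collagen, stood first at 201 RPKM, rank 191 of the 12176 tested genes with a length. Col6a1 followed at 175 RPKM, Col5a2 at 139, Col8a1 at 108, Col1a2 at 101, Col6a3 at 93.4, Col4a1 at 86.7, Col6a2 at 71.2, Col4a2 at 48.4 and Col5a1 at 33.4 RPKM. By this length, a type VI, a type V and a type VIII chain stood among the 4 highest, next to type I. Col3a1, the chain of type III collagen, reached 28.6 RPKM, Col16a1 16.5, Col5a3 11.5 and Col12a1 10.5. Below 5 RPKM stood Col10a1 (2.74), Col18a1 (2.30), Col7a1 (0.875), Col17a1 (0.237), Col11a2 (0.143) and Col28a1 (0.0888).

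**Figure D1:**
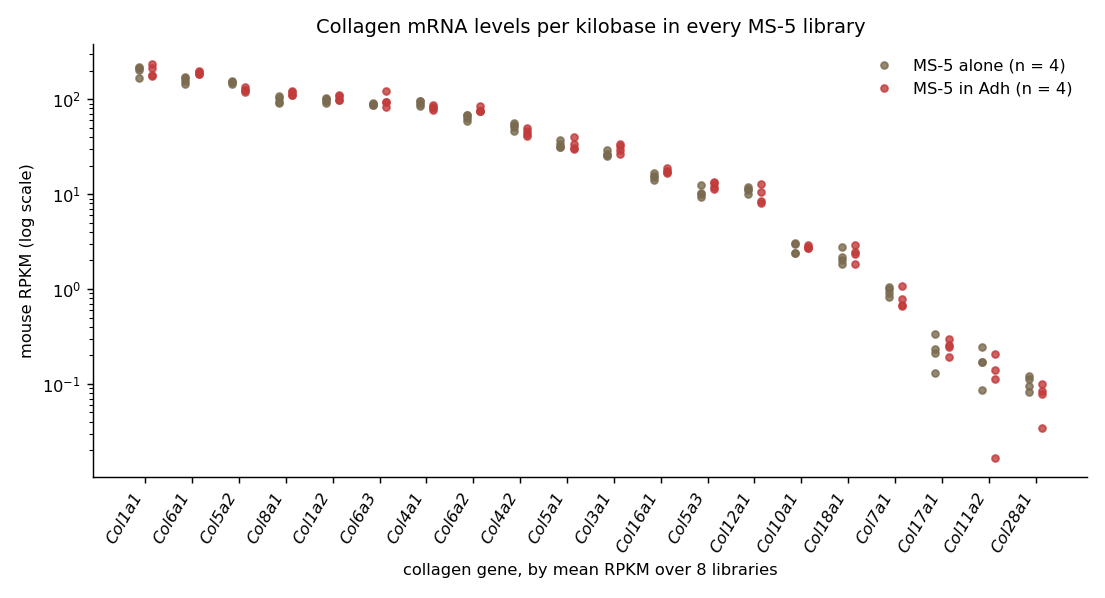
Level of the 20 tested collagen genes in mouse RPKM on a log scale, each point 1 library of MS-5 alone or of Adh (n = 4 each), ordered by the mean over all 8. The levels run from 201 RPKM for Col1a1 to 0.0888 for Col28a1, and the colours lie close together beside that range.

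Of the 19 pairs of neighbours in this order, 12 overlapped over the 8 libraries, among them every pair of neighbours from Col1a1 down to Col6a2. Of all 28 pairs within these first 8 members, 16 did not overlap, and Col1a1 lay above each of the 6 from Col5a2 down in every library. Pairs whose libraries did not overlap were Col6a2 over Col4a2, Col4a2 over Col5a1, Col3a1 over Col16a1, Col16a1 over Col5a3, Col12a1 over Col10a1, Col18a1 over Col7a1 and Col7a1 over Col17a1. The order also depended on the length used. Divided by the coding transcript in place of all annotated exons, an alternative chosen after seeing the data, Col1a2 rose to the first place at 235 RPKM and Col1a1 stood second at 222 (the exons of Col1a2 add up to 12426 bases and its coding transcript to 5348). Col5a2 (202 RPKM) and Col6a1 (187) came next. Col8a1 fell to rank 5 at 165, so by that length no type VIII chain was among the 4 highest.

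The comparison with MS-5 alone asked whether coculture with lymphoma cells was accompanied by a change in stromal collagen mRNA. Contact and other effects of the added cells cannot be told apart in this design. The sample records give no seeding number or dish size for MS-5 alone. No collagen gene was called, at an adjusted p of at most 0.05 and at least 1.5-fold in edgeR's quasi-likelihood test: 0 of the 20 tested members were higher and 0 lower, beside 0.041% higher and 0.164% lower of all 12201 tested genes. With the fold minimum left aside, 1 member passed in each direction, Col6a1 higher (background 0.197%) and Col5a2 lower (background 0.574%). At an unadjusted p under 0.05 there were 9 of 20 members, 6 higher and 3 lower, beside 11.3% of all tested genes. DESeq2 also called 0 members, beside 0.286% of its genes, with 3 members higher (Col6a1, Col6a2 and Col8a1) and 1 lower (Col5a2) at its adjusted p alone and 9 at an unadjusted p under 0.05. The log2 fold changes of the 20 members, 12 positive and 8 negative, ran from -0.55 to 0.26 with a median of 0.07, where the median of all tested genes was -0.0017. In such bulk libraries fewer cells of a kind and less RNA per cell cannot be told apart.

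The intervals bound what these libraries allow. For 16 of the 20 members the whole 95% interval lay within 1.5-fold in either direction, as for 79.7% of all tested genes, and the 4 exceptions were Col7a1, Col11a2, Col17a1 and Col28a1, all at mean levels below 10 CPM. Over the 17 members at 5 CPM or more in MS-5 alone the bounds reached from 0.659-fold to 1.35-fold. Libraries of the groups did not overlap for 4 of the 20 members, beside 6.74% of all tested genes: Col5a2, Col6a1, Col6a2 and Col8a1. Precision grows with the count, so the 14 members at 50 CPM or more in MS-5 alone were also set beside the 4699 tested genes at that level. There, 9 of 14 members and 15.0% of all genes had an unadjusted p under 0.05, and 4 of 14 and 8.79% did not overlap, given as a description with no test.

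**Figure D2:**
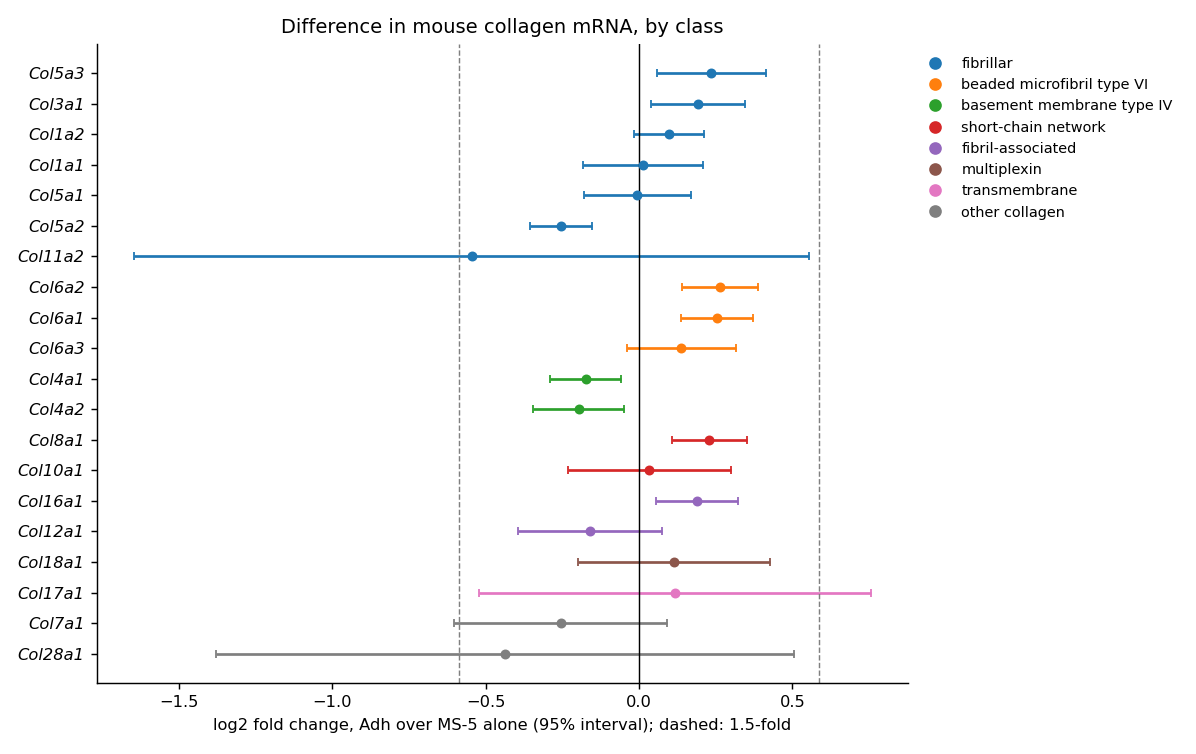
Log2 fold change of each tested collagen gene, Adh over MS-5 alone, with its 95% interval from the fit across all genes (x axis), grouped by class (colour, y axis); dashed lines mark 1.5-fold. No estimate lies beyond 1.5-fold, and the widest intervals belong to Col11a2, Col28a1 and Col17a1, which have the lowest levels.

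Fibrillar chains had estimates on both sides of 0. Col1a1 stood at 1105, 1397, 1426 and 1325 CPM in MS-5 alone and at 1150, 1558, 1197 and 1396 CPM in Adh. These ranges overlap almost fully, with a log2 fold change of 0.01 ± 0.09 (SE) and an adjusted p of 0.979. Its partner in type I collagen, Col1a2, stood at 1144, 1192, 1273 and 1241 CPM alone and at 1211, 1357, 1236 and 1385 CPM in Adh (log2 fold change 0.10 ± 0.05, adjusted p = 0.531), again overlapping.

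Col5a2 is a chain of type V collagen, which co-assembles with type I and is known for limiting fibril diameter. It measured 1384, 1464, 1498 and 1467 CPM in MS-5 alone and 1215, 1297, 1154 and 1210 CPM in Adh. All 4 coculture libraries lay under all 4 of MS-5 alone, by a log2 fold change of -0.25 ± 0.05 (SE; 95% interval -0.35 to -0.15), or 0.839-fold, with an adjusted p of 0.0160 in edgeR's test. The adjusted p rose above the threshold without MS-5 alone 2 (0.0763), MS-5 alone 3 (0.0963), MS-5 alone 4 (0.0739) or Adh 3 (0.0889), while the log2 fold change stayed between -0.28 and -0.22 in all alternatives. Col5a1, the other main type V chain, stood at 270, 285, 313 and 270 CPM alone and at 258, 338, 254 and 285 CPM in Adh, with overlapping libraries and a log2 fold change of -0.01 ± 0.08 (adjusted p = 0.992) whose sign turned under upper-quartile scaling, without the low-count filter, with the GC and length correction and with some single libraries left out. Col5a3 had a log2 fold change of 0.24 ± 0.08 (adjusted p = 0.258), with 64.2 to 84.5 CPM alone and 77.8 to 90.9 CPM in Adh.

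Col3a1 lies tail to tail with Col5a2 on chromosome 1, 24614 bases away. It measured 286, 260, 255 and 248 CPM alone and 335, 288, 260 and 315 CPM in Adh, with a log2 fold change of 0.19 ± 0.07 and an adjusted p of 0.310, so this neighbour of Col5a2 had an estimate of the opposite sign. Col11a2, at 0.597 to 1.67 CPM alone and 0.115 to 1.43 CPM in Adh, had the widest interval of all members, from -1.65 to 0.55 around a log2 fold change of -0.55 (adjusted p = 0.754). Over the 7 fibrillar members tested, 4 estimates were positive and 3 negative, with 0 called in either direction and a median of 0.01.

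Type VI chains had estimates above 0 throughout, with none called. Col6a1 measured 689, 630, 745 and 736 CPM in MS-5 alone and 851, 805, 815 and 867 CPM in Adh. Every Adh library lay above every library of MS-5 alone, with a log2 fold change of 0.25 ± 0.06 (SE; 95% interval 0.14 to 0.37), or 1.19-fold, and an adjusted p of 0.0486. That p was 0.0451 without Adh 2 and lay above 0.05 with any other library left out, at 0.0756 without MS-5 alone 1, 0.152 without MS-5 alone 2, 0.0728 without MS-5 alone 3 and 0.0730 without MS-5 alone 4. It was 0.0916 without Adh 1, 0.0939 without Adh 3, 0.119 without Adh 4 and 0.0517 with all counts halved. The adjusted p of Col6a1 passed in 11 of 19 alternatives. Among these it was 0.0017 with a block for replicate number, 0.0026 in DESeq2 and 6.2e-05 without a low-count filter.

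Col6a2, encoded 85161 bases from Col6a1 on the same strand of chromosome 10 (chr10:76595762-76623630), measured 530, 486, 570 and 568 CPM alone and 627, 628, 632 and 700.0 CPM in Adh. The libraries did not overlap, but the adjusted p was 0.0510 (log2 fold change 0.26 ± 0.06) and passed in 8 of 19 alternatives. Col6a3, the long chain that completes the type VI heterotrimer, measured 1041, 1070, 1096 and 1047 CPM alone and 1111, 1446, 1120 and 1003 CPM in Adh. Adh 2 stood high and Adh 4 lay below every library of MS-5 alone, for a log2 fold change of 0.14 ± 0.08 (adjusted p = 0.569). Col6a4 had 25 counts over the 8 libraries, and Col6a5 and Col6a6 had 0.

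**Figure D3:**
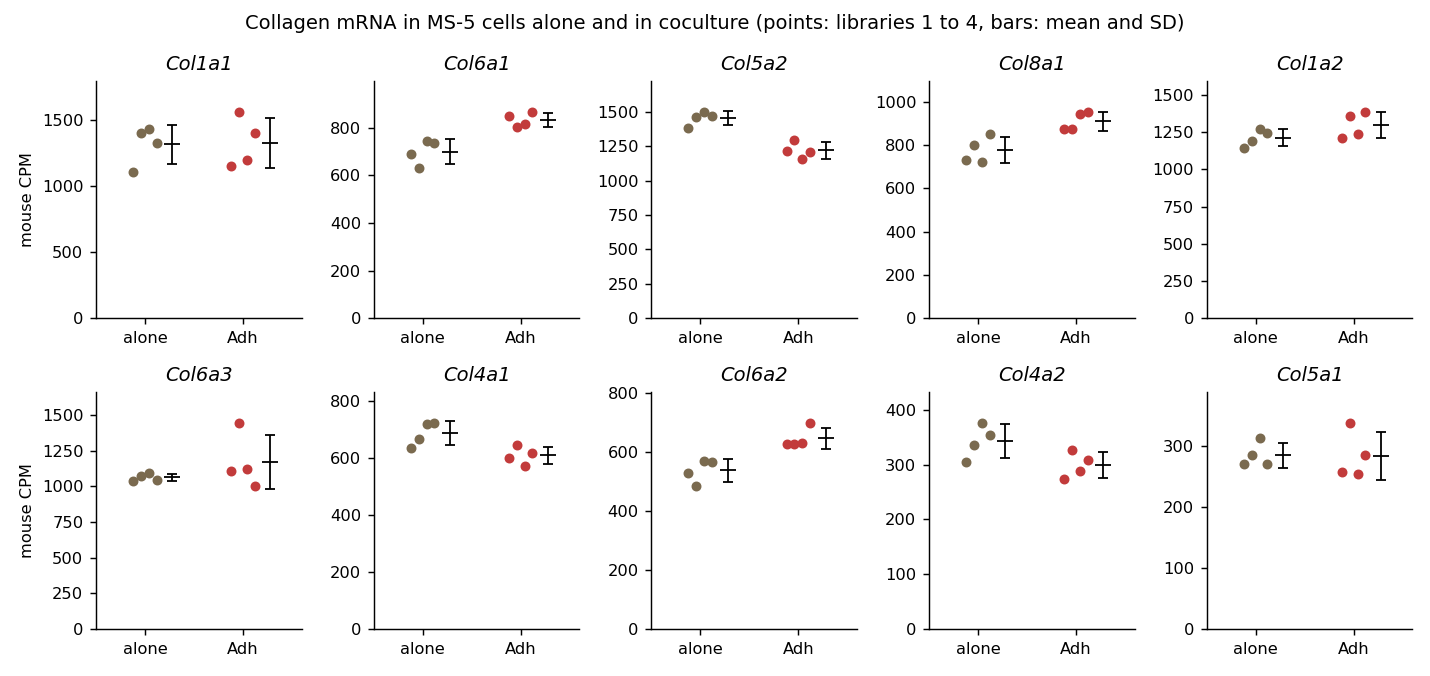
Mouse CPM of the 10 collagen genes with the highest level per kilobase in each library of MS-5 alone and of Adh (points, n = 4 each), with mean and SD beside them; each panel has its own y axis from 0. Col5a2 is lower and Col6a1, Col6a2 and Col8a1 are higher in all 4 Adh libraries, and the other panels overlap.

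Col4a1 and Col4a2 encode the main chains of basement membrane and start head to head on chromosome 8, where their exons overlap by 22 bases on opposite strands (Col4a2 at chr8:11312805-11449287). Col4a1 measured 634, 668, 719 and 723 CPM alone and 599, 645, 571 and 617 CPM in Adh, with a log2 fold change of -0.17 ± 0.05 (adjusted p = 0.197). Col4a2 measured 304, 335, 376 and 354 CPM alone and 273, 327, 287 and 308 CPM in Adh, with a log2 fold change of -0.20 ± 0.07 (adjusted p = 0.261). The groups overlapped for both genes, and neither passed the test. The other type IV chains were nearly silent, with 50 counts over 8 libraries for Col4a5, 24 for Col4a4, 11 for Col4a3 and 2 for Col4a6.

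Col8a1, a chain of the hexagonal nets of type VIII collagen, measured 733, 799, 724 and 853 CPM alone and 874, 873, 944 and 954 CPM in Adh. The groups did not overlap, and the log2 fold change was 0.23 ± 0.06, or 1.17-fold, with an adjusted p of 0.0869. It passed in 3 of 19 alternatives, at 0.0050 with a block for replicate number, 0.0177 in DESeq2 and 0.0004 without a low-count filter. Col8a2, the usual partner of Col8a1, had no count in any library. Col10a1, a chain known from hypertrophic cartilage, stood at 7.46 to 9.49 CPM alone and 8.39 to 9.18 CPM in Adh (log2 fold change 0.03, adjusted p = 0.955).

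Among the chains that decorate fibrils, Col16a1 had a log2 fold change of 0.19 ± 0.06 (adjusted p = 0.231) and Col12a1 one of -0.16 ± 0.11 (adjusted p = 0.636). Col18a1, the multiplexin whose fragment is endostatin, stood at 0.11 ± 0.15 (adjusted p = 0.828). Col17a1, a transmembrane collagen of hemidesmosomes, stood at 0.12 ± 0.30 (adjusted p = 0.935). Col7a1, the anchoring fibril chain, stood at -0.26 ± 0.16 (adjusted p = 0.596) and Col28a1 at -0.44 ± 0.44 (adjusted p = 0.772). The libraries of the groups overlapped for all 6 genes.

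The 24 members that did not pass the filter had at most 51 counts over the 8 libraries and at most 0.782 CPM in any library. Counts were 0 throughout for Col19a1, Col11a1, Col23a1, Col25a1, Col9a1, Col9a2, Col6a6, Col8a2, Col13a1 and Col6a5, which allows a level of up to 0.0163 CPM over all 8 libraries (3 counts, counting error only). The other 14 had 2 to 51 counts, led by Col20a1 (51), Col4a5 (50), Col15a1 (46), Col27a1 (26) and Col6a4 (25), while Col2a1, the cartilage fibril chain, had 4 and Col14a1 2. Col22a1 had 21, Col24a1 16, Col9a3 8 and Col26a1 4. Low counts in these tables were even more often than odd, in 71.1% to 78.6% of the mouse values from 1 to 20, as when both mates of a read pair are counted, in which case intervals and floors from counts are too narrow.

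The make-up of the collagen counts was described by class, with no test. Type VI chains took 25.5% ± 0.90 (SD) of the collagen counts in MS-5 alone and 28.6% ± 0.86 in Adh, and type IV chains took 11.4% ± 0.32 and 9.77% ± 0.07. Fibrillar chains took 51.0% ± 0.99 and 48.5% ± 1.16. The libraries of the groups did not overlap for these 3 classes, whose shares are bound to each other because they add up with the rest to the whole. On the scale of all mouse counts the fibrillar chains (0.458% ± 0.023 alone and 0.452% ± 0.034 in Adh) and the type IV chains (0.102% ± 0.007 and 0.0910% ± 0.0049) overlapped, whereas type VI chains (0.229% ± 0.010 and 0.266% ± 0.014) and short-chain collagens (0.0782% ± 0.0060 and 0.0923% ± 0.0046) did not. Of the collagen counts, short-chain collagens took 8.72% ± 0.67 and 9.93% ± 0.82, and fibril-associated chains 3.04% ± 0.02 and 2.91% ± 0.20, both with overlap.

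**Figure D4:**
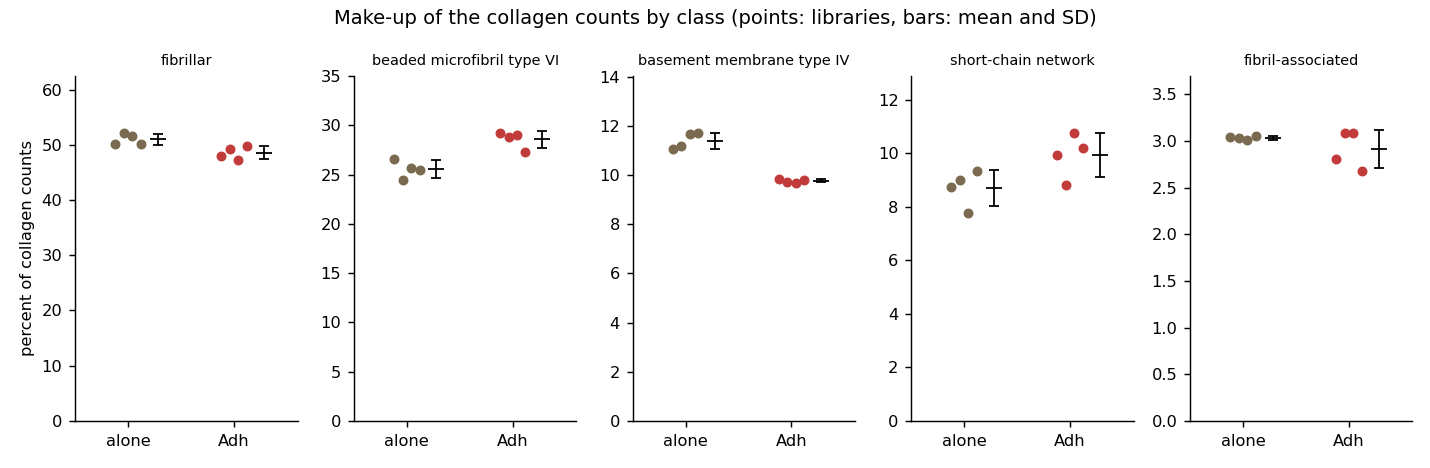
Share of all collagen counts held by the chains of 5 classes in each library (points, n = 4 per condition), with mean and SD; every y axis starts at 0. Type VI lies higher in all 4 Adh libraries (28.6% against 25.5% on average), type IV and fibrillar chains lie lower on this scale, and the other classes overlap.

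Chains that share a molecule or a fibril were also compared as ratios of RPKM within a library, which do not depend on scaling between libraries. Of 7 pairs set, 6 could be computed, since Col8a2 had no counts, and with 4 libraries against 4 the smallest two-sided exact permutation p is 0.0286. The Col5a1 to Col5a2 ratio was 0.220, 0.220, 0.236 and 0.208 in MS-5 alone and 0.240, 0.294, 0.248 and 0.266 in Adh, without overlap. Its exact p was the smallest possible, 0.0286, and 0.171 after adjustment over the 6 pairs, so it did not pass. The ratio combines the lower Col5a2 with the near-level Col5a1 described before and is no separate evidence.

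The remaining ratios overlapped between groups. Col6a2 to Col6a1 was 0.405 ± 0.002 (SD) in MS-5 alone and 0.408 ± 0.015 in Adh (exact permutation p = 0.629, adjusted 0.686), and Col4a2 to Col4a1 was 0.562 ± 0.022 and 0.554 ± 0.026 (exact permutation p = 0.686, adjusted 0.686). These ratios of neighbouring genes had pooled SDs of 0.04 and 0.06 on the log2 scale, against 0.11 to 0.26 for the other 4 pairs. Col6a3 to Col6a1 spread more, at 0.559 ± 0.044 and 0.516 ± 0.101 (exact permutation p = 0.371, adjusted 0.557). Col3a1 to Col1a1 was 0.136 ± 0.025 and 0.154 ± 0.030 (exact permutation p = 0.343, adjusted 0.557). Col1a1 to Col1a2, the pair of type I collagen, was 2.05 ± 0.17 and 1.93 ± 0.17 (exact permutation p = 0.371, adjusted 0.557) over all exons but 0.975 and 0.919 over the coding transcripts, so the absolute ratio cannot be read as a stoichiometry.

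The lymphoma cells carried few collagen transcripts, and other ones. Of the 44 human collagen genes, 12 reached 1 CPM of human counts in REC-1 Sep, against 19 of the mouse members in MS-5 alone, with 5 chains at that level in both. COL4A5, a type IV chain, stood at 53.8 ± 4.16 CPM (SD) in Sep and 36.5 ± 4.27 CPM in Adh. Its mouse counterpart Col4a5 had 32 counts over the 4 Adh libraries and 18 in MS-5 alone, or means of 0.251 and 0.353 CPM. COL19A1 stood at 24.7 ± 2.17 CPM in Sep and COL9A3 at 15.8 ± 5.09 CPM, while their mouse counterparts had 0 and 8 counts over the 8 libraries. All other human chains lay below 7 CPM in Sep. The highest human collagens and the highest mouse collagens were thus different chains.

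**Figure D5:**
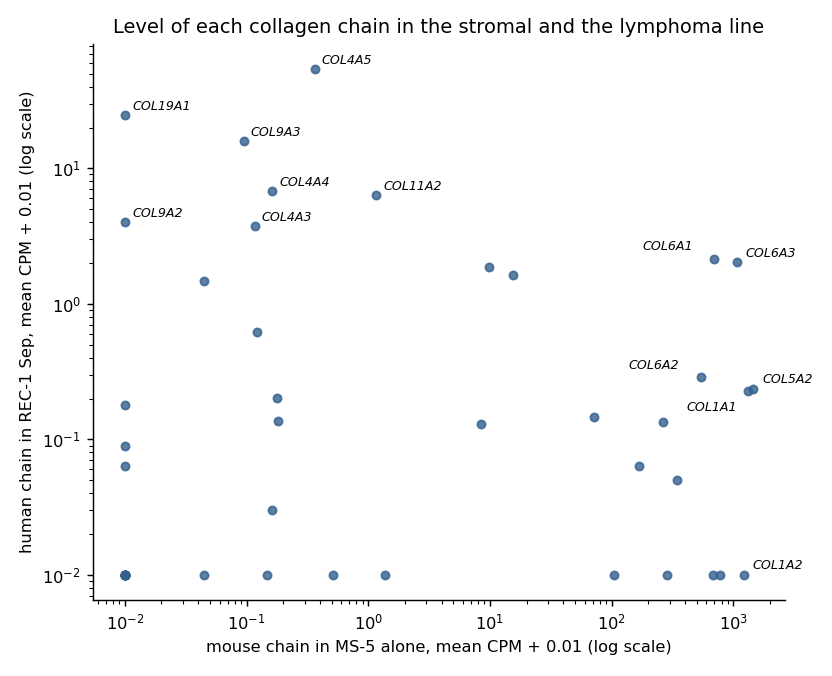
Mean CPM of each of 43 collagen chains in MS-5 alone (x axis, mouse counts) and of the human chain of the same name in REC-1 Sep (y axis, human counts), both plus 0.01 on log scales. COL4A5, COL19A1 and COL9A3 lie high in REC-1 and near 0 in MS-5, and the abundant stromal chains lie at the right with 2.15 CPM or less in REC-1.

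The same values bear on the assignment of reads to species in the mixed libraries. For the 14 members at 50 CPM or more in MS-5 alone, human counts in Adh came to at most 0.0777% of the mouse counts of the same chain, with a median of 0.0049%. COL6A1 had 84 human counts in the 4 Adh libraries beside 108073 mouse counts of Col6a1, and its human level was 2.28 ± 0.78 CPM in Adh and 2.15 ± 0.98 CPM in Sep, which held no stroma. Human collagens together took 0.0127% ± 0.0012 (SD) of the human counts in Sep, 0.0125% ± 0.0006 in Susp and 0.0094% ± 0.0013 in Adh.

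Genes that make, shape and bind collagen were read from lists, against the same background as the members (0.041% of all tested genes called higher, 0.164% lower, and 79.7% with an interval within 1.5-fold). At that background 0 calls in a list this small say little about the list. Of 24 genes of chain modification, folding and secretion 22 were tested, 0 were called, and for all 22 the 95% interval lay within 1.5-fold. Serpinh1, the collagen chaperone HSP47, had a log2 fold change of -0.01 ± 0.08 (adjusted p = 0.985), P4ha1, a prolyl hydroxylase subunit, one of 0.05 ± 0.06 (adjusted p = 0.789) and Plod2, a lysyl hydroxylase, one of 0.02 ± 0.06 (adjusted p = 0.963), and the signs of Serpinh1 and Plod2 turned under alternatives. Of 11 genes of propeptide removal 5 were tested and 0 called, with Bmp1, the C-proteinase, at 0.07 ± 0.06 (adjusted p = 0.731) and its enhancer Pcolce at 0.03 ± 0.05 (adjusted p = 0.879).

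Of 6 cross-linking genes 5 were tested and 0 called. Lox, the lysyl oxidase, stood at 1612 ± 153 CPM (SD) in MS-5 alone and 1907 ± 226 CPM in Adh (log2 fold change 0.24 ± 0.08, adjusted p = 0.235, but 0.0261 without Adh 2). Its relative Loxl4, named after its values were seen, stood at 185 ± 9.74 and 151 ± 14.8 CPM (-0.30 ± 0.07, adjusted p = 0.0596). Of 14 fibril organisers 8 were tested and 0 called, and decorin (Dcn), lumican (Lum), Prelp and Kera had no counts. Thbs2, a matricellular thrombospondin also named after its values were seen, had an adjusted p of 0.0018 at a log2 fold change of 0.29 ± 0.04, below the fold minimum, with 6609 ± 138 CPM (SD) alone and 8063 ± 254 CPM in Adh. Fibronectin (Fn1) stood at 0.05 ± 0.08 (adjusted p = 0.886) and Sparc at -0.03 ± 0.05 (adjusted p = 0.891), both with a sign that turned when 1 library was left out.

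Of 15 basement membrane partners 9 were tested and 0 called. Of the 9 estimates 8 were negative and 1 positive, beside 6154 negative of all 12201 tested genes. Their median log2 fold change was -0.19, next to -0.19 for the only 2 type IV chains tested, Col4a1 and Col4a2, given as a description with no test. The largest estimate was that of Lamb3, also named after its values were seen (-0.50 ± 0.12, adjusted p = 0.0726 in edgeR's test). Nid1, which links laminin to type IV collagen and was named after its values were seen, stood at 777 ± 43.2 CPM (SD) alone and 675 ± 56.1 CPM in Adh (-0.20 ± 0.06, adjusted p = 0.179). Of 10 collagen receptors 5 were tested and 0 called. Ddr2, a receptor tyrosine kinase for fibrillar collagen, stood at 601 ± 24.1 and 695 ± 69.0 CPM (0.21 ± 0.06, adjusted p = 0.187, but 0.0220 without Adh 2), and Itga11 had no counts. Of 12 genes of transforming growth factor beta, a known inducer of collagen genes, 11 were tested and 0 called, with Tgfb1 at 0.20 ± 0.06 (adjusted p = 0.184).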

How the data were processed

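RNA was sequenced from MS-5 cells alone, REC-1 cells (Sep, Susp) and the mixed adherent layer (Adh) as poly-A libraries with no strand information stated. Per the study's methods, the authors assigned read pairs to a species with Xenome, aligned them with STAR 2.5.1b to GRCh38 and GRCm38 with Ensembl 87 annotation, kept unique alignments and counted on concatenated exons with featureCounts (Subread 1.5.2). The deposited counts were raw whole numbers per gene, described as fragments, though low values are even more often than odd, as when mates are counted singly, which was not tested further. The other 20 columns of per-sample values were not used.

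Mouse counts of 4 MS-5 alone and 4 Adh libraries were compared in R 4.3.3 with edgeR 4.0.16 (filterByExpr, TMM, glmQLFit, glmQLFTest), with p-values Benjamini-Hochberg adjusted over 12201 genes and calls at an adjusted p of at most 0.05 and at least 1.5-fold. CPM were counts over the TMM-scaled library size, and marker sums and shares used the unscaled total. RPKM used the union of exons of GENCODE M21 (GRCm38), which held 99.3% of the mouse genes and all 44 members. Chain ratios were tested with the exact permutation test of scipy 1.17.1, two-sided. Code was tested on simulated counts. No pair of libraries of a group agreed within sampling noise. The members were taken by a rule on names that uses no value, but that rule, the lists and the pairs were chosen with earlier results of these data known. Every tested member was named, with values in every library for the 10 highest by RPKM, and fixed genes of each pathway list. Genes named outside that rule are marked, and some genes of the lists are not reported here. The fit was repeated with a block for replicate number, in DESeq2 1.42.0, with upper-quartile scaling, with scaling that leaves out collagens, without a filter, on genes at 10 counts or more in all libraries, on thinned counts, without mitochondrial genes, without the fold minimum and with 1 library left out at a time. A correction for GC and length (loess span 0.3), halved counts and the coding transcript length were added after seeing the data. Depth ranged from 10097555 to 34615602 mouse counts per library, and intervals from counts cover counting error only.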

Additional observations from a re-analysis of the deposited data

Results flagged for a closer look

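Of 70 groups of 4 libraries examined over the tested members, the class shares and the chain ratios, 4 held a library far from the rest by Dixon's criterion, where chance gives about 1 in 20. Col6a2 stood at 700.0 CPM in Adh 4 and at 627 to 632 CPM in the other Adh libraries. Type VI chains took 0.287% of the mouse counts in Adh 2 and 0.258% to 0.260% in the others, and Col6a3 was also highest in Adh 2. The Col3a1 to Col1a1 ratio was 0.173 in MS-5 alone 1 and 0.120 to 0.125 in the other libraries of MS-5 alone. The Col4a2 to Col4a1 ratio was 0.515 in Adh 1 and 0.562 to 0.572 in the other Adh libraries. Their cause was not tested.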

How the results depend on the processing

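No member was called under any of the 18 alternatives that kept the fold minimum. Without it there was 1 member higher, 1 lower and 94 genes in all. Genes called over the whole table, 25, became 45 with the replicate block, 45 without a low-count filter and 8 to 36 with 1 library left out, lowest without MS-5 alone 3. At adjusted p alone, the members higher, 1, became 3 with the replicate block, 3 in DESeq2, 5 without a filter, 0 with halved counts and 2 under upper-quartile scaling, at least 10 counts, thinning, removal of mitochondrial genes or the GC and length correction. The members lower, 1, became 2 with the block, where Col4a2 joined Col5a2 (adjusted p = 0.0428). With 1 library left out both counts lay between 0 and 1, and the causes were not tested beyond the loss of a sample. Deviations of libraries of the same number correlated positively in all 4 cases (r of 0.286, 0.083, 0.033 and 0.161), 2 of them above 0.1. In each group 3 of 4 libraries correlated best with their own number. The labels do not say that a number marks a shared experiment, and whether it does was not tested. The main test therefore leaves a possible pairing aside, and the block gives the results with it.

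Of 581 values of 31 named genes, 551 kept sign and side, 3 passed once the fold minimum was dropped (Col5a2, Col6a1 and Thbs2) and 27 changed sign, all of them near 0. Side here means the call with the fold minimum. No member passed it under any of the 18 alternatives that kept it, so this count says little about stability. At the adjusted p alone results moved more. Of 19 alternatives Col5a2 passed in 15, Col6a1 in 11, Col6a2 in 8 and Col8a1 in 3. Col3a1, Col4a2 and Col5a3 passed in 1 each. Lox and Ddr2 passed the adjusted p, below 1.5-fold, in 3 of 19 alternatives each, with the block (0.0012 and 0.0171), without a filter (2e-05 and 0.0025) and without Adh 2 (0.0261 and 0.0220). Under upper-quartile scaling Col5a1 was 0.0050 and Serpinh1 0.0018 (log2). Without a filter they were 0.0096 and 0.0060. In thinned counts Col10a1 was -0.053, Serpinh1 0.00012 and Plod2 -0.00037, and with the GC and length correction Col5a1 was 0.021. With 1 library left out the log2 fold change ranged from -0.0736 to 0.0803 for Col1a1, -0.100 to 0.0505 for Col5a1, -0.0234 to 0.0955 for Col10a1, -0.0647 to 0.378 for Col17a1 and -0.0824 to 0.0564 for Serpinh1. It ranged from -0.0267 to 0.0648 for Plod2, -0.0339 to 0.119 for Fn1, -0.0486 to 0.0052 for Sparc and -0.0088 to 0.0552 for Pcolce. Differences in chain ratios between groups, with summed counts or 1 library left out, and collagen shares, without mitochondrial genes, over protein-coding genes or with 1 library left out, moved by less than the spread between replicates. The ratios themselves depended on the length used, and over coding transcripts Col6a2 to Col6a1 was 0.799 in MS-5 alone in place of 0.405. The 4 members whose intervals pass 1.5-fold all lie below 10 CPM, and Col10a1, at a level like that of Col7a1, does not pass it.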
